A study of Vitis vinifera with 2 samples.

Results

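Novel_mir_177 and novel_mir_178 are 2 of the 299 predicted grapevine miRNAs with read counts in the deposited table, and they were grouped because their mature sequences resemble the known miRNA miR535 and because each has a precursor on chromosome 7_random, the set of contigs that belong to chromosome 7 but have no fixed place on it. The names used here are those of the deposited table. The article calls the same sequences novel_mir_31 and novel_mir_32, and the entry that the deposited table names novel_mir_32 is another miRNA. The cold-treated (CT) library came from micropropagated 'Muscat Hamburg' plantlets of Vitis vinifera held for 4 h at 4 °C, and the non-cold-treated (NCT) library came from plantlets of the same age, 6 weeks, that stayed at 26 °C by the labels and the methods (the article's results give a slightly lower control temperature). Each library is a single one, made from 3 pooled plantlets, so every test below compares the reads of 2 libraries and has no replicate check. The labels give the tissue as leaf, while the methods of the study describe a shoot apex with a developed leaf, and counts of small RNAs hold no marker gene by which the tissue could be checked. Fewer cells of a type and less of a miRNA per cell cannot be told apart in such whole-tissue samples.

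In plants, a miRNA is cut from one arm of a hairpin precursor and guides the silencing of mRNAs to which it is nearly complementary. miR535 is an old plant family whose mature sequence resembles that of miR156. miR156 silences mRNAs of SBP-box transcription factors (the SPL genes) and is known for holding plants in the juvenile phase, and in rice miR535 has also been tied to SPL mRNAs.

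The mature sequences are given here with bases 2 to 8, the seed, in capitals, beside the known grapevine miR535 and 2 members of the miR156 family, because most of the differences among the members and miR535 fall in the seed.
novel_mir_177: tGACAGCGagagagagcacgc
novel_mir_178: tGACAAAGagagagagcacac
vvi-miR535a: tGACAACGagagagagcacgc
vvi-miR156b: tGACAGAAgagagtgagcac
vvi-miR156h: tGACAGAAgagagagagcat

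Novel_mir_177 differed from vvi-miR535a by 1 substitution, A6G (the base of miR535 first, positions counted from 1 at the 5′ end). Novel_mir_178 differed from it by 2 substitutions, C7A and G20A. The 3 listed members of the known family, vvi-miR535a, b and c, share 1 mature sequence, so these distances hold for all of them. The members differed from each other by 3 substitutions, and of their 21 bases 18 were the same in both members and in miR535. The longest stretch common to the 3 sequences was the 12 bases at positions 8 to 19, gagagagagcac. Among the 299 entries of the deposited list, 2 held this stretch, the members themselves, and of the 162 known miRNAs compared 3 held it, all of the miR535 family.

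All differences from miR535 but 1 fell inside the seed, and so the 3 seeds were 3 different ones. No other entry and no known miRNA shared a seed with either member. Apart from the miR535 family, the known miRNA nearest to novel_mir_178 by position-for-position comparison was of the miR156 family, with 6 mismatches over 19 bases, and for novel_mir_177 no other known miRNA came under 8 mismatches. Gaps were then allowed, which was decided after seeing the sequences, and unmatched end bases of the longer sequence were not counted as edits. Novel_mir_178 came within 2 edits of vvi-miR156h and of vvi-miR156b, and novel_mir_177 within 3 edits of the miR156 family. From miR535, of the same length as the members, novel_mir_178 was 2 edits away and novel_mir_177 was 1 edit away. Vvi-miR156h and vvi-miR156b have 20 bases and left end bases of novel_mir_178 uncounted, so its equal counts of 2 are not a tie. Over all known miRNAs outside the miR535 and miR156 families, both members were at least 7 edits away. Among the other entries of the table, the only further sequence within 4 mismatches of a member was novel_mir_154, with 4 mismatches to novel_mir_178 over 18 bases on the same strand. On the opposite strand no entry came under 7 mismatches.

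The precursors are shown with the mature miRNA in capitals, because the relation of the members to each other and to miR535 lies in the strands of these hairpins. They are given as the study lists them, on the 12X assembly of the PN40024 genome, the one that the article names. The precursor of novel_mir_177 lies on the plus strand at chr7_random:1392255-1392353, over 99 nt annotated as coding sequence (CDS), and its mature miRNA takes positions 1392265 to 1392285. The precursor of novel_mir_178 lies on the minus strand at chr7_random:1422270-1422383, over 114 nt annotated as intergenic, with its mature miRNA at 1422353 to 1422373. Between the 2 precursors lie 29916 nt. The second line is the reverse complement of the first precursor, the opposite strand of the same locus, with the known miR535 sequence in capitals.
novel_mir_177 precursor: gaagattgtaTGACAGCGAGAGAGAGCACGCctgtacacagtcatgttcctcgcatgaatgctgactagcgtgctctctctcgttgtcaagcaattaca
opposite strand of the novel_mir_177 precursor: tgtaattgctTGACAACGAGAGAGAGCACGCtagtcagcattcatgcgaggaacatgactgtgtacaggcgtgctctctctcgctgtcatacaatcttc
novel_mir_178 precursor: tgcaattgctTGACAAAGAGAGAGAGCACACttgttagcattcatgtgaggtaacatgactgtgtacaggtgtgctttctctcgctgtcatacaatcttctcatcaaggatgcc

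The locus of novel_mir_177 held the miR535 sequence on its other strand. The reverse complement of its precursor contained the mature miR535 with 0 mismatches at positions 11 to 31, that is, on the minus strand at 1392323 to 1392343, and novel_mir_177 itself takes positions 11 to 31 of the plus strand. Read on the minus strand, novel_mir_177 is thus the complement of positions 69 to 89, the arm that pairs with miR535. Novel_mir_178 lies on the strand that corresponds to the miR535 strand. The opposite strand of the novel_mir_177 precursor aligned to the first 100 bases of the novel_mir_178 precursor with 91 of its 99 bases identical (91.9%), 8 substitutions and 1 base more in the novel_mir_178 precursor. The novel_mir_177 precursor in its own orientation aligned less closely, with 74 of 99 bases identical (74.7%). In the novel_mir_178 precursor, the arm opposite the mature miRNA (positions 70 to 90) was the complement of novel_mir_177 with 2 mismatches.

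An exact copy of a known mature miRNA on the strand opposite to a predicted precursor was found for 3 of the 65 precursor sequences compared, the one of novel_mir_177 and those the article names novel_mir_40 (with vvi-miR3632) and novel_mir_53 (with vvi-miR164a). The last 2 are named for their number alone, after their values were seen. No known mature sequence was found whole on either strand of the novel_mir_178 precursor.

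All 3 sequences folded into a hairpin with the miRNA in the 5′ arm. In the structure of lowest free energy at 37 °C, the novel_mir_177 precursor had -58.1 kcal/mol and all 21 bases of its mature miRNA were paired. Its opposite strand had -50.9 kcal/mol, with 20 of the 21 bases of the miR535 sequence paired. The novel_mir_178 precursor had -54.6 kcal/mol, with 19 of 21 bases paired and a small second hairpin near its 3′ end. In each of them the pairing partners of the miRNA lay on the other arm. The energies are those of whole sequences of different length and do not rank the miRNAs.

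**Figure D1:**
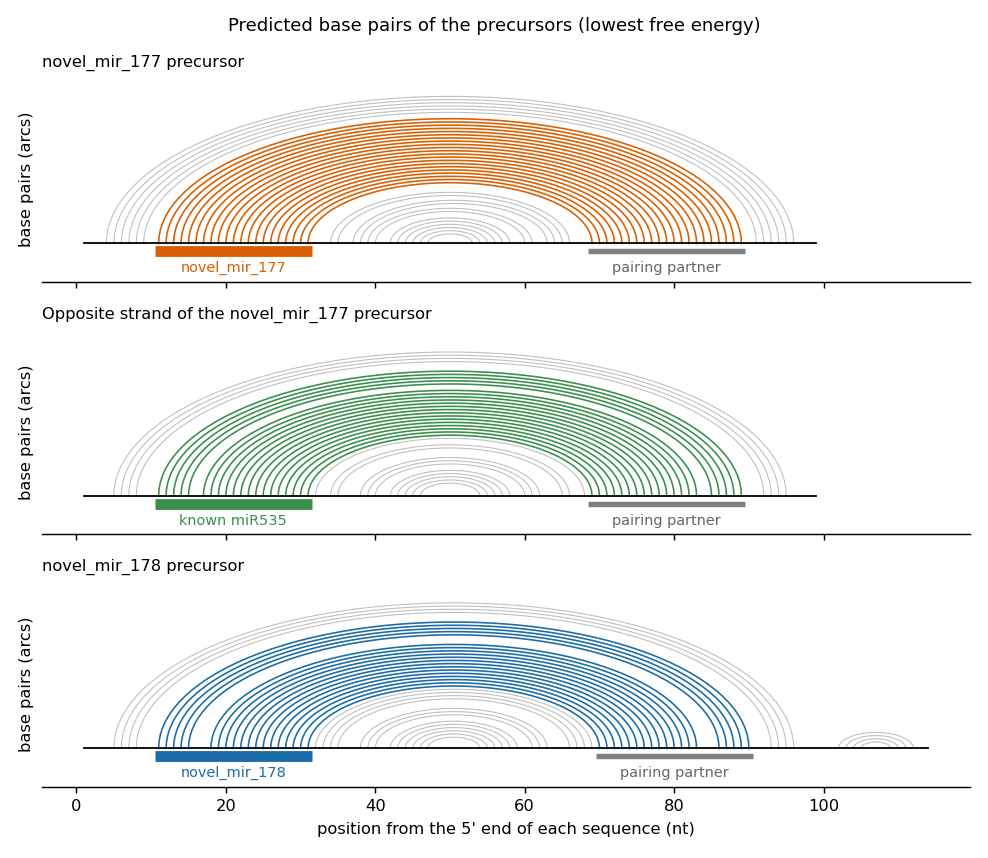
Predicted base pairs of the novel_mir_177 precursor, of its opposite strand and of the novel_mir_178 precursor. The horizontal axis is the position from the 5′ end in nt, each arc joins 2 paired bases, coloured arcs pair a base of the miRNA, the thick coloured bar is the miRNA at positions 11 to 31 and the grey bar its pairing partner; 21, 20 and 19 of the 21 bases are paired.

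The 2 members differed widely in level. Novel_mir_178 had 8339 reads in the CT library, which is 322 TPM (reads scaled to a library of 1000000 clean reads; 95% Wilson interval 315 to 329), against 9743 reads in the NCT library, which is 456 TPM (447 to 465). It was the entry with the 5th most reads of the table in the CT library and the one with the 4th most in the NCT library, and it took 8.55% of all reads of the table in CT and 10.5% in NCT. The nearest entries around it had 8651 and 3916 reads in CT and 10867 and 4690 reads in NCT. It thus stood closer to the entry above it than to the one below in both libraries. The intervals cover counting error alone, since PCR reads without molecular identifiers are not independent molecules.

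Novel_mir_177 had 73 reads in the CT library, 2.82 TPM (2.24 to 3.54), against 47 reads in the NCT library, 2.20 TPM (1.66 to 2.93). It stood at the 42nd place in CT, level with another entry of 73 reads, and at the 56th in NCT, between entries of 48 and 46 reads. The intervals of the 2 libraries overlapped, and both lay under 10 TPM, the level below which the study did not compare miRNAs.

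Novel_mir_178 was lower in the CT library by a log2 ratio (CT over NCT) of -0.50 with a counting SE of 0.02 (95% interval -0.55 to -0.46), a linear ratio of 0.705. Fisher's exact test (two-sided, reads of the entry against all other clean reads) gave p = 1.3e-121 (Benjamini-Hochberg adjusted over all entries, 3.6e-120). This ratio stood near the middle of the table. Of the 103 entries listed in both libraries the median was -0.41, 44 had a lower ratio and 58 a higher one. When the libraries were scaled so that this median lay at 0 (median of ratios), the ratio was -0.09 (exact p = 1.5e-05), so that its size depends on the library total chosen.

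Novel_mir_177 had a log2 ratio of 0.36 with a counting SE of 0.27 (-0.17 to 0.89), a linear ratio of 1.28, and the exact test gave p = 0.2 (adjusted 0.24). Its interval held 0, and with 73 and 47 reads a difference of this size was not detectable at this depth. Of the 103 entries 87 had a lower ratio and 15 a higher one. With the median of ratios as scale its ratio was 0.77 (exact p = 0.0045).

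The limits on level, size and p followed the study (more than 10 TPM in either library, log2 above 1 or below -1, p no larger than 0.001), but the p is that of Fisher's exact test in place of the published formula that the study used. By these limits, 12 of 28 entries over 10 TPM (42.9%) were called, and 0 of the 2 members was among them. Of the 12 called entries, 4 were listed in both libraries, as the members are. The others were listed in 1 library only, and their count of 0 in the other was set to 0.01 TPM. Novel_mir_178 passed the limits on level and on p and missed the one on size, and novel_mir_177 missed all of them. Without the limit on level, 12.6% of the 103 entries listed in both libraries were called, again with neither member. By p alone 24.3% of these 103 entries passed, among them 1 of the 2 members, novel_mir_178.

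**Figure D2:**
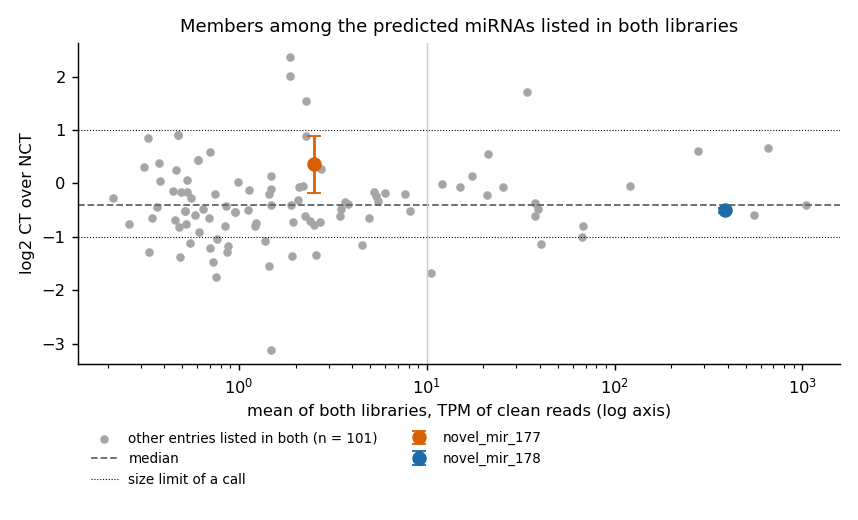
Log2 ratio of CT over NCT (vertical axis) against the mean level of both libraries in TPM (log axis) for the 103 entries listed in both. Grey points are the other entries, bars on the 2 members are 95% counting intervals, the dashed line is the median (-0.41), dotted lines are the size limit of 1, and the vertical line is 10 TPM; novel_mir_178 lies close to the median and novel_mir_177 above it with a wide bar.

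The ratios of the members differed from each other beyond counting error. Novel_mir_177 made up 0.868% of the reads of the pair in the CT library (73 of 8412 reads; 0.691 to 1.09%), against 0.480% in the NCT library (47 of 9790 reads; 0.361 to 0.638%). The intervals did not overlap. The difference of the log2 ratios, novel_mir_177 minus novel_mir_178, was 0.86 with a counting SE of 0.27 (0.33 to 1.39), a linear factor of 1.82, and Fisher's exact test on the 4 counts (two-sided) gave p = 0.0017. This comparison does not depend on the library totals, since both members come from the same libraries. It too rests on 1 library per condition, and its Fisher p lies above the limit on p used for the calls. Novel_mir_177 is 1 substitution away from miR535, a family for which the article lists far more reads in both libraries. Whether miR535 reads with a sequencing error are among its 73 and 47 reads was not tested. The intervals and the p take all of these reads as those of a separate miRNA.

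**Figure D3:**
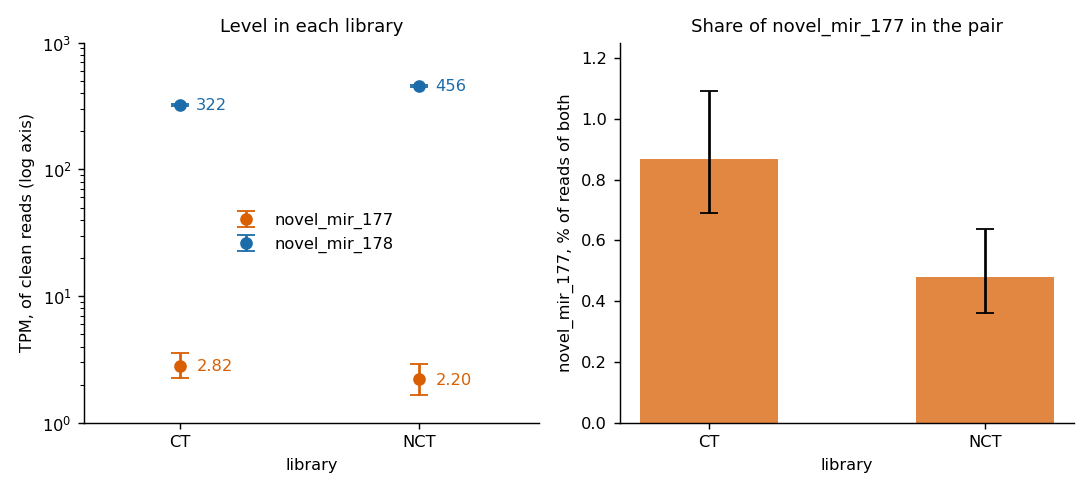
Left, level of each member in the CT and the NCT library in TPM (log axis); right, share of novel_mir_177 in the summed reads of both members, in percent. Bars are 95% Wilson intervals for counting error; novel_mir_178 is at 322 (CT) and 456 (NCT) TPM, novel_mir_177 at 2.82 (CT) and 2.20 (NCT) TPM, and its share is 0.868% in CT and 0.480% in NCT.

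The entries with the ratios most like those of the members, by distance in log2 between the same 2 libraries, were unlike them in sequence except for 1. For novel_mir_178, among the entries over 10 TPM, they were novel_mir_66 (851 reads in CT and 973 in NCT, log2 -0.47) and novel_mir_154 (11480 in CT and 14210 in NCT, log2 -0.59). Novel_mir_154 is also the entry found above with 4 mismatches to novel_mir_178. For novel_mir_177 they were novel_mir_145 (11 reads in CT and 7 in NCT, log2 0.37) and novel_mir_97 (9 in CT and 6 in NCT, log2 0.31), whose ratios rest on few reads.

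Both members were listed with several precursors, so their reads cannot be assigned to the chromosome 7_random loci alone. Novel_mir_178 was listed with 8 precursors in each library, and novel_mir_177 with 2 in each. At each of the 8 precursors the whole count of novel_mir_178 was repeated (8339 reads in CT and 9743 in NCT), and likewise for novel_mir_177 (73 in CT and 47 in NCT). The same reads thus stand at every precursor. In both libraries every precursor of both members was read from the 5p arm, and no read of a 3p arm was listed. No precursor of any entry was listed with both arms in either library (240 precursors in CT and 306 in NCT), so the lack of a 3p count says nothing of the members.

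Novel_mir_178 had both many precursors and many reads. It was the only entry with over 3 precursors among those with at least 50 reads. Such entries were 48 of the 192 listed in CT and 52 of the 210 listed in NCT, so most entries had low counts. How many of the entries with fewer reads had over 3 precursors was not counted. The 3 other entries with 8 or more precursors reached this number in NCT only and had at most 18 reads. Divided by the number of precursors, which was decided after seeing the counts, novel_mir_178 had 28.6 times as many reads as novel_mir_177 in CT and 51.8 times in NCT, against 114 times in CT and 207 times in NCT as listed.

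The numbers of the precursors ran mostly by chromosome name, then strand, then position. This is an order of listing and not one along the genome. Among the entries with 1 precursor and a place given by the study, neighbouring numbers followed the order of chromosome name, strand and position in 42 of 44 pairs in CT and 48 of 49 pairs in NCT. The first precursors of the members had neighbouring numbers, 186 (novel_mir_177) and 187 (novel_mir_178) in CT and 250 and 251 in the same order in NCT, after the last placed chromosome 7 entry (184 in CT, 245 in NCT) and before the first of chromosome 8 (195 in CT, 258 in NCT). This is where chromosome 7_random belongs, plus strand before minus strand, in the order in which the study places the 2 loci. The remaining 7 precursors of novel_mir_178 and the remaining 1 of novel_mir_177 had numbers above that of the entry placed on chrUn, the contigs assigned to no chromosome (216 in CT, 284 in NCT). In CT novel_mir_178 was at 217, 218, 219, 228, 229, 230 and 234, and novel_mir_177 at 224. In NCT novel_mir_178 was at 287, 288, 289, 296, 297, 298 and 300, and novel_mir_177 at 294. In both libraries the order of these numbers was the same, with 3 precursors of novel_mir_178 before and 4 after the one of novel_mir_177. The numbers do not give the arrangement of these precursors on the genome. The sequences and places of these further precursors are not analysed here.

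**Figure D4:**
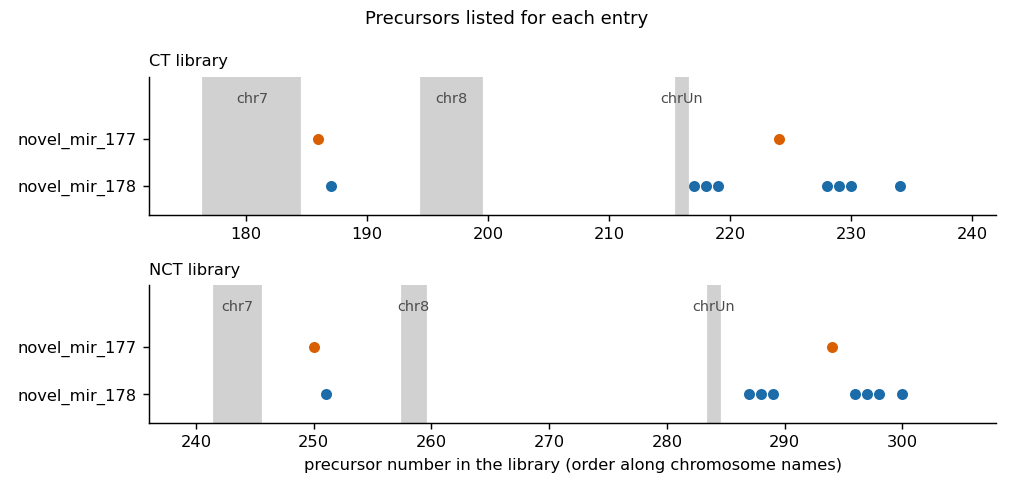
Numbers of the precursors listed for novel_mir_177 and novel_mir_178 in the CT library (above) and in the NCT library (below); the horizontal axis is the precursor number, which runs along chromosome names. Grey bands span the placed entries of chr7, chr8 and chrUn; the first precursor of each member falls between chr7 and chr8 and the others after the chrUn entry, in the same order in both libraries.

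No target of either member is listed among the 147 predicted target sites compared here. The prediction covered miRNAs called as changed. Since the members resemble the miR156 family, they were set against the 11 sites listed for vvi-miR156bcd, all in mRNAs with an SBP domain. Of these sites 7 have the same sequence, shown because it is the one the members come closest to.
SBP-box site of vvi-miR156bcd: gtgctctctctcttctgtca

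Without gaps the members paired poorly with it. Over 19 bases novel_mir_178 left 4 bases unpaired and had 1 G:U pair, novel_mir_177 left 5 unpaired with 2 G:U pairs, and vvi-miR535a left 5 unpaired with 1 G:U pair, against 1 unpaired base of 20 for vvi-miR156b itself. With gaps allowed, an alternative added after seeing the sequences, bases 1 to 19 of novel_mir_178 were complementary to the whole site but for 1 site base bulged out opposite positions 5 and 6 (1 edit). Novel_mir_177 and vvi-miR535a each needed 2 edits, a bulged site base and a mismatch. Over all 11 sites of vvi-miR156bcd, the edits ran from 1 to 6 for novel_mir_178 and from 2 to 7 for novel_mir_177 and for vvi-miR535a. Against the sites listed for the other miRNAs none of the 3 came under 7 edits. The most distant SBP-box site was thus no closer to novel_mir_177 or vvi-miR535a than these. The sites of vvi-miR156bcd were predicted by their pairing with that miRNA. Closeness of the members to these sites thus goes with their likeness to miR156 and is no separate evidence of targets. These are comparisons of letters, and no cleavage of an mRNA by either member was measured in the files used here. The reads of the known miR535 and miR156 are not analysed here.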

How the data were processed

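Small RNAs were sequenced from 1 CT and 1 NCT library. The authors kept clean reads of small RNA length and used SOAP2 to map them without mismatches to the PN40024 genome (12X). They removed other non-coding RNAs and known miRNA precursors, and ran Mireap on the rest. By the article's methods, sequences with at most 2 mismatches counted as known miRNAs. Novel_mir_177 has 1 mismatch to miR535 and novel_mir_178 has 2, yet the study lists both as predicted. How they passed this step was not tested. The deposited values are raw, unscaled read counts of each predicted mature miRNA. Other deposited columns give precursor numbers, arms and reads at each precursor. The 299 entries hold 97572 reads in CT and 92912 in NCT, of 25915815 and 21355400 clean reads; TPM is reads scaled to 1000000 of these.

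Counts were compared by Fisher's exact test (two-sided, scipy 1.17.1), with Wilson intervals at 95%. The test was tried on counts simulated with counting error alone and with changes larger than those of the members. It was thus not checked for variation between plants or for small ratios. A quasi-likelihood fit needs replicates and was left out; edgeR 4.0.16 gave TMM factors and an exact test with an assumed variation. Precursors, places, known miRNAs and target sites came from the study's supplementary tables, joined by mature sequence; copies hold 65 precursors and 162 known miRNAs. Structures were folded with RNAfold 2.7.2. Gapped distances were computed with edlib 1.3.9, without counting unmatched end bases of the longer sequence. Named entries were the members, entries sharing bases 2 to 8 or within 4 mismatches, and those nearest in log2 ratio. Members and lists were chosen with earlier results of these data known.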

Additional observations from a re-analysis of the deposited data

How the results depend on the processing

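No paired analysis was possible because there is only 1 library of CT and 1 of NCT. Neither member was called under any library total or test tried. The alternatives for the difference between the members keep the same 4 counts and so do not bear on its stability, and it was not tested with an assumed variation. Novel_mir_178 had log2 ratios from -0.50 to -0.09 over the library totals, all below 0. Novel_mir_177 had 0.36 to 0.77, all above 0, and with reads of both members summed the ratio was -0.50, below 0, since novel_mir_178 makes up nearly all of the sum. When variation between plants was assumed (coefficient 0.2 or 0.4), edgeR's exact test gave p = 0.22 and 0.55 for novel_mir_178 and p = 0.52 and 0.72 for novel_mir_177, so the small Fisher p reflects counting error alone. The 12 called entries (5 higher and 7 lower in CT) became 101 with no limit on low values, 29 with at least 50 reads, 4 among entries listed in both libraries, and 10 and 8 with edgeR at these 2 variations. With the median of ratios or TMM, 7 were higher and 5 lower. Folding at 4 °C gave -91.9 kcal/mol for the novel_mir_177 precursor, -83.4 for its opposite strand and -90.8 for the novel_mir_178 precursor, and the order of the 3 was the same at 26 °C and with the other parameters.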
